A study of Mus musculus with 23 samples.

Results

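The regions described here are the H3K27me3 peaks of Ebf2-EGFP+ cortical cells at E13.5 that lie close to the start of a protein-coding gene. They were chosen by position within 1 deposited peak list: every peak on chromosomes 1 to 19 and X with a gap of at most 5 kb to a transcription start site (TSS), taken as the 5′ end of a protein-coding gene in GENCODE M21. Of the 6720 peaks of that list on these chromosomes, 2040 met the rule (30.4%, 95% Wilson interval 29.3 to 31.5), and they are called sites below. The other 4680 peaks, over 5 kb from every such TSS, are called distal peaks and serve as the comparison within the list. All 8 lists of the series together held 230624 peaks. The site nearest to the limit from inside lay 4989 bp from the TSS of Neurl3 and was 119 bp wide. The peak nearest to it from outside lay 5004 bp from Reep5 and was 179 bp wide. The membership rests on called peaks and distance alone, so the presence of H3K27me3 at a site is not a finding.

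The study profiled H3K27ac and H3K27me3 by ChIP-seq in cerebral cortex cells of Tg(Ebf2-EGFP)FB58Gsat mouse embryos, a line in which a bacterial artificial chromosome carrying Ebf2 regulatory sequence drives EGFP. Fluorescence sorting gave EGFP- cells at E11.5 and EGFP+ cells at this stage, at E13.5 and at E15.5, with no treatment in any group. The 23 samples comprised 15 ChIP libraries in 8 groups of mark, cell group and stage, plus 8 input libraries. Groups held 2 libraries, except H3K27ac in EGFP- cells at E11.5 with 1, and 1 peak list was deposited per ChIP group. With 1 list per group there is no replicate error, no test between groups was run, and the intervals below cover counting over peaks or genes only. The ages of the groups differ by design, and reads of the Ebf2 locus from transgene copies and from the endogenous locus cannot be told apart.

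H3K27me3 is placed on lysine 27 of histone H3 by Polycomb repressive complex 2 and is read by Polycomb repressive complex 1. In embryonic tissue it covers CpG-rich promoters of genes that specify other lineages, among them the Hox, Pax, Irx, Nkx and Fox transcription factors and ligands such as the Wnts, which stay silent or poised in cells that do not use them. H3K27ac sits on the same lysine at active promoters and enhancers, and a single lysine carries only one of the marks at a time.

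The sites below show what the sequence under these peaks looks like in the groups that the results turn on, on the plus strand of GRCm38 (mm10), 5′ to 3′, with CpG dinucleotides in capitals. Irx3, Hoxa9 and Ebf3 stand for developmental regulators, Foxf1 and Zbtb16 for sites seen in no other list, Hspa1b for a promoter with several marks, Tmem125 for a site seen in all 8 lists, and Gm10718 for the satellite sequence that gave the genes with the most sites. The Gm10718, Hspa1b and Zbtb16 sites follow a rule on width and overlap, and the other 5 were picked after their values were seen.
Irx3 site, chr8:91800527-91800791: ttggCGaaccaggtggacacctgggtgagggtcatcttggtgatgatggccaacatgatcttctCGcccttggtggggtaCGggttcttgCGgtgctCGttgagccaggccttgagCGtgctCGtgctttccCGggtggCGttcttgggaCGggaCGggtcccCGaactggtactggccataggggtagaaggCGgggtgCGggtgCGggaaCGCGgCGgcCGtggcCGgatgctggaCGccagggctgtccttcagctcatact
Hoxa9 site, chr6:52234633-52234915: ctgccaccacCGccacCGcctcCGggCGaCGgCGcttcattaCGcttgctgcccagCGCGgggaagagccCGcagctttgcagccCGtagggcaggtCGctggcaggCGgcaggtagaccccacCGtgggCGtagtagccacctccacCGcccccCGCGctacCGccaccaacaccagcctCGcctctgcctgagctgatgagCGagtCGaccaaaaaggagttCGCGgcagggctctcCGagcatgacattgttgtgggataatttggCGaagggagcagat
Ebf3 site, chr7:137314487-137314691: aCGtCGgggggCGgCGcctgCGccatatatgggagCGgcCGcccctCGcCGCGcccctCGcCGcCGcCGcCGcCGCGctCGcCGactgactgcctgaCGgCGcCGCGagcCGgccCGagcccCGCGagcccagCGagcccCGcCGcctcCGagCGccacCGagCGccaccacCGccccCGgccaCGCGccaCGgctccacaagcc
Foxf1 site, chr8:121086269-121086474: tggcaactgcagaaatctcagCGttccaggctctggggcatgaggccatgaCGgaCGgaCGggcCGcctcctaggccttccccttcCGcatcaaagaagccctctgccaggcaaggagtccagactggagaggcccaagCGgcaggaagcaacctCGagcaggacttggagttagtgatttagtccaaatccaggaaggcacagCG
Zbtb16 site, chr9:48834954-48835251: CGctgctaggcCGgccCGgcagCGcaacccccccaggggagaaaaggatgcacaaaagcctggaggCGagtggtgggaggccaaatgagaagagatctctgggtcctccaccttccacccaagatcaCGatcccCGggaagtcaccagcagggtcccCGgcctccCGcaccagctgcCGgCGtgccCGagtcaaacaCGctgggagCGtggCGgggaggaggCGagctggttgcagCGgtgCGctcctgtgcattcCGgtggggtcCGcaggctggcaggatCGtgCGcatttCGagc
Hspa1b site, chr17:34958018-34958309: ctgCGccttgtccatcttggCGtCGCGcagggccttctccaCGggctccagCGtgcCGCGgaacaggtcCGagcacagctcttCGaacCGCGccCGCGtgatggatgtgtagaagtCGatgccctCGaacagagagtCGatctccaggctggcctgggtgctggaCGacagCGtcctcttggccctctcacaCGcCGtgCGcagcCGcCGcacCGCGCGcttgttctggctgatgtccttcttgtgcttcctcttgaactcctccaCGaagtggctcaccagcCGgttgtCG
Tmem125 site, chr4:118548460-118548716: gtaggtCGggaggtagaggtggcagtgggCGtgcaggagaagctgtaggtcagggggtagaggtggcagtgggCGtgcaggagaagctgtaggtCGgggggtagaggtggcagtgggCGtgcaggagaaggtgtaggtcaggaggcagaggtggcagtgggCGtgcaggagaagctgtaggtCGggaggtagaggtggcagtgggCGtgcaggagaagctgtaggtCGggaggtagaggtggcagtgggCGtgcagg
Gm10718 site, chr9:3020842-3021141: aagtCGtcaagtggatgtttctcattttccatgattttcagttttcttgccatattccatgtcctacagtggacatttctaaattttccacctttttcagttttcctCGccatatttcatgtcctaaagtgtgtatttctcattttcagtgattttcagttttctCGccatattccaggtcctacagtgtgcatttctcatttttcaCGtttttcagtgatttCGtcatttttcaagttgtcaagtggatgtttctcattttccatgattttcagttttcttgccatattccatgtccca

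By annotation, the Irx3 and Hspa1b sites lie in coding exons of these genes, the Foxf1 and Zbtb16 sites in introns, and the Ebf3 and Tmem125 sites between genes. The Hoxa9 site lies upstream of that gene, in a coding exon and within the span of Hoxa10, whose own TSS is over 5 kb away. The Gm10718 site lies in the coding exon of a predicted gene. The Irx3 site lay 1408 bp downstream of the TSS in the coding sequence and held 21 CpGs. The Ebf3 site, centred 144 bp upstream of the TSS, held 39 CpGs in 205 bp. By contrast, the satellite site beside Gm10718 held 5 CpGs in 300 bp. The Tmem125 site is a tandem array, in which the most frequent 12-base word occurred 6 times. The gene Hspa1b has a near-identical neighbour, Hspa1a, so reads there may belong to either copy.

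The sites were narrow and lay more often downstream than upstream of the nearest TSS. The median width was 155 bp (quartiles 126 and 200), against 143 bp for distal peaks, and 12.5% of sites had the smallest width in the list, 116 bp, against 19.9% of distal peaks. Widths of 200 bp or more were found in 25.5% of sites and 16.5% of distal peaks. A TSS was covered by 202 sites (9.90%), 1167 (57.2%) lay within 1 kb, and 873 lay between 1 and 5 kb away. The centre lay downstream of the nearest TSS in 71.7% of sites (69.7 to 73.6) and in 77.3% of those within 1 kb. The fullest 0.5 kb bin, from the TSS to 500 bp downstream, held 634 sites, while the matching upstream bin held 200. This lean was not particular to the list: in all 8 lists the downstream share of TSS-near peaks was between 58.1% and 83.8%. In the annotation, 27.9% of site centres fell in a coding exon, 17.6% in a 5′ UTR, 29.1% in an intron and 17.6% between genes.

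**Figure D1:**
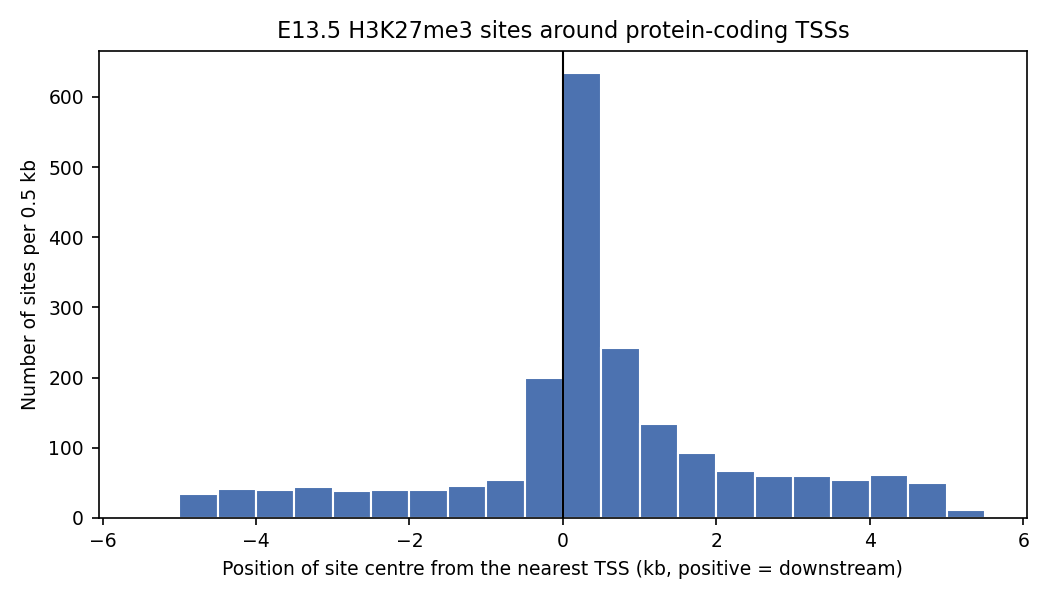
Number of E13.5 H3K27me3 sites in each 0.5 kb bin of signed distance from the site centre to the nearest protein-coding TSS (x axis in kb, positive downstream; y axis, sites per bin). The bin just downstream of the TSS holds 634 of the 2040 sites and the bin just upstream 200.

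A total of 2042 of 21755 protein-coding genes had at least 1 site, which is 9.39% of all genes (9.01 to 9.78), and this share is the background for every family below. Most of them, 1821 genes, had exactly 1 site. Of the remaining 221 genes (10.8% of the marked genes, 9.55 to 12.2), 175 had 2 sites, 28 had 3, 8 had 4, 1 had 5 and 9 had more than 5. Conversely, 306 sites (15%) lay within 5 kb of more than 1 gene, so neighbours such as Hoxb7 and Hoxb8 share a site and are not independent. By chromosome the share of genes with a site ran from 5.58% on chromosome 3 to 13.8% on chromosome 15, while chromosome X stood below all autosomes at 2.00% (19 of 948 genes, 1.29 to 3.11).

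The 9 genes with the most sites were all predicted genes within satellite sequence at the start of chromosome 9. Gm10717 and Gm10718 had 15 sites each, Gm17535 and Gm10719 had 12 each, and Gm10720 had 10, Gm10721 and Gm10715 9 each, Gm11168 8 and Gm10722 7. They shared 45 sites in all. Each of the 45 was also overlapped by E15.5 H3K27me3, E13.5 H3K27ac and E15.5 H3K27ac, 44 by EGFP- H3K27ac and 43 by EGFP- H3K27me3, whereas 6 were overlapped by EGFP+ H3K27ac at E11.5 and none of the 45 by EGFP+ H3K27me3 at E11.5. Gm21738 followed with 5 sites. The widest sites included more satellite sequence, at Gm10800 (1052 bp) and Gm10801 (700 bp) on chromosome 2. Peaks of either mark in such repeats depend on how reads with many matches were placed, and their part in the counts is given with the alternatives in the closing section.

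Outside the satellites, the genes with 4 sites were Irx2 and Irx3, homeodomain regulators of patterning, Wnt10b, a secreted ligand, Zfpm1, a cofactor of GATA factors, Insl3, a peptide hormone, Fcgr3, an immunoglobulin receptor, Tmem125 and AW822073. At Irx3, Fcgr3, Tmem125 and AW822073 every gap between neighbouring sites was under 1 kb. Each of these sets is 1 stretch where peaks within 1 kb are merged. At Wnt10b every gap was over 1 kb. AW822073 lies close to Duxf3, where read placement is uncertain as said below. All 4 of its sites were overlapped by EGFP+ H3K27me3 of E11.5, beside 36 of all 2040 sites, and by H3K27ac at all 3 EGFP+ stages. Genes with 3 sites included Foxf1, Foxc1, Foxl1, Onecut3, Hoxb2, Dbx1, Gsx1 and Hmx1, all of them developmental transcription factors, picked by name from the 28 genes. The widest sites outside satellites were at H2-Q1, a major histocompatibility gene (753 bp), Spint1, a protease inhibitor (607 bp), Notum, a secreted Wnt-inactivating enzyme (599 bp), Adcy2, an adenylate cyclase (596 bp), Fam83g (571 bp), Fcgr3 (568 bp), Tmem200b (561 bp), and Rnf213 and Otud7a (560 bp each).

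Gene families differed widely in how many members had a site. Of 243 genes in 14 families of developmental transcription factors, 93 had a site, or 38.3% (32.4 to 44.5), beside 9.39% of all genes. Signalling and axon guidance genes followed with 36 of 181 (19.9%, 14.7 to 26.3), and genes of neuronal excitability with 32 of 230 (13.9%). The shares for chromatin genes (18 of 174, 10.3%) and solute carriers (38 of 371, 10.2%) were near the background. Genes listed as housekeeping were at 6.87% (42 of 611, 5.13 to 9.16) and Zfp zinc finger genes at 7.11% (28 of 394, 4.96 to 10.1). The housekeeping list is broad: it includes genes of ubiquitin conjugation and removal (10 of 92 with a site) and Kelch, Trim and Fbx ligases (11 of 170). Receptor and barrier genes of other tissues were at 1.16% (19 of 1636, 0.745 to 1.81), with 8 of 1093 olfactory receptors among them. More than 1 site was found at 25 of the 93 developmental factors (26.9%) and 10 of the 36 signalling genes (27.8%), beside 10.8% of all marked genes. Peaks a short way apart count as separate sites here. With peaks within 1 kb merged, 6.51% of all marked genes had more than 1, and this was not computed for the classes. The shares were lower under narrower definitions of a site. With a TSS window of 1 kb, 21.0% of developmental factors and 7.83% of genes of neuronal excitability had a site, beside 5.38% of all genes, and with sites of at least 200 bp 16.5% and 3.48%, beside 2.51%. These families were listed with earlier results of the same data known, so the order is a description.

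**Figure D2:**
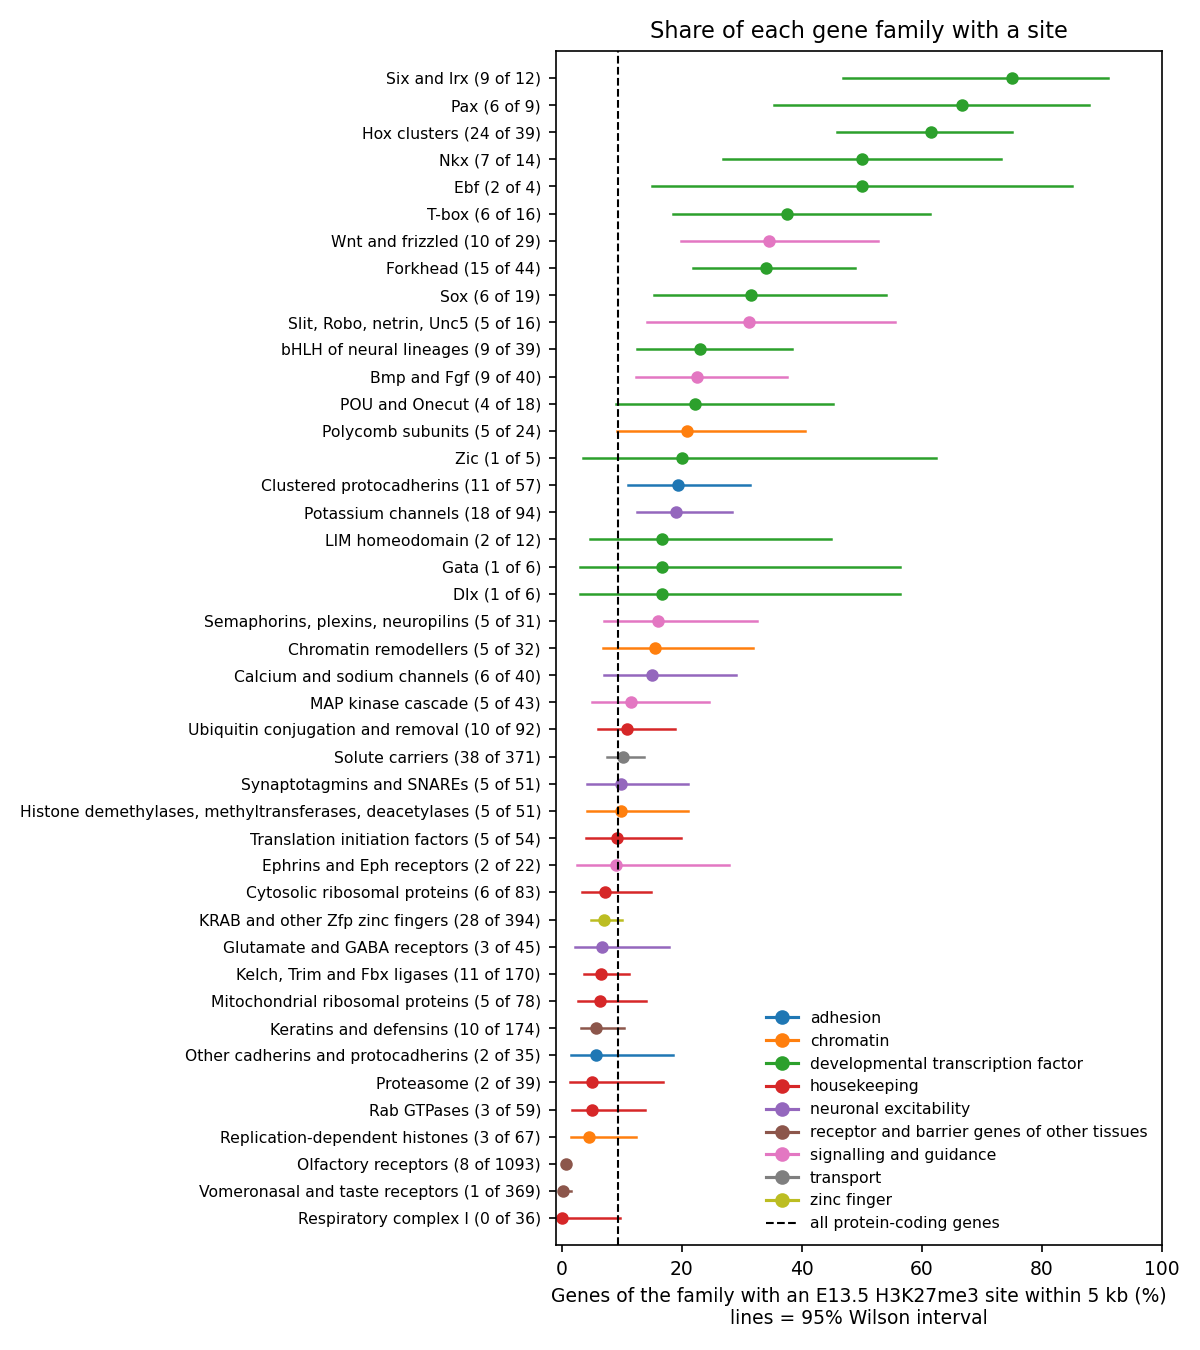
Share of genes with an E13.5 H3K27me3 site within 5 kb (x axis, %) in each of 43 gene families (y axis, with the count of marked genes and family size), coloured by class, with 95% Wilson intervals as lines and all protein-coding genes (9.39%) as the dashed line. The family of Irx and sine oculis homeobox genes, the Pax genes and the Hox genes stand highest, and olfactory and vomeronasal receptors and complex I lie at or near 0.

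The Irx and sine oculis homeobox genes, regulators of head, placode and neural patterning, had sites at 9 of 12 members. Irx3 had 4 sites, of which 3 were overlapped by EGFP- H3K27me3 and all 4 by E13.5 H3K27ac. Irx2 had 4, of which 2 were overlapped by EGFP- H3K27me3 and 2 by E13.5 H3K27ac. Irx1, Irx5 and Irx6 had 2 sites each, and Six2, Six3 and Six4 had 1 each. Each of these named genes had an EGFP- H3K27me3 peak within 5 kb, and Irx1 alone among them had no E13.5 H3K27ac peak there. Over the whole family, 12 of 12 genes had EGFP- H3K27me3 and 10 of 12 had E13.5 H3K27ac.

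Pax genes, paired-domain regulators of organ and brain regions, had sites at 6 of 9 members (66.7%), with 2 of 9 (22.2%) for a TSS window of 1 kb and 3 of 9 for sites of at least 200 bp. Pax2, a regulator of the midbrain boundary and kidney, had 2 sites. Pax1, Pax5, Pax6, Pax7 and Pax8 had 1 site each. Pax6, the regulator of cortical progenitors, had a 123 bp site 1489 bp upstream of its TSS that no other list overlapped, with no EGFP- H3K27me3 peak and 3 E13.5 H3K27ac peaks within 5 kb.

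Nkx genes, ventral patterning regulators, had sites at 7 of 14 members, each with both EGFP- H3K27me3 and E13.5 H3K27ac within 5 kb. Of all 14 Nkx genes, with or without a site, 13 had EGFP- H3K27me3 and 14 had E13.5 H3K27ac there. Nkx2-1, which specifies the ventral telencephalon, had a 197 bp site in its coding exon that overlapped both EGFP- H3K27me3 and E13.5 H3K27ac. Nkx3-2, Nkx1-2 and Nkx2-4 had 2 sites each, while Nkx2-5, Nkx1-1 and Nkx6-1 had 1.

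The Hox genes, which set position along the body axis behind the forebrain, had sites at 24 of 39 members (61.5%, 45.9 to 75.1), with 25 sites shared among them. With a TSS window of 1 kb, 11 of 39 had a site (28.2%), and with sites of at least 200 bp 12 of 39 (30.8%). Marked were 7 of 11 Hoxa, 7 of 10 Hoxb, 5 of 9 Hoxc and 5 of 9 Hoxd genes. Hoxb2 had 3 sites, Hoxa9, Hoxc9 and Hoxd13 had 2 each, and the other 20 had 1. Both Hoxa9 sites lay upstream of Hoxa9, within the span of Hoxa10. All 24 had an E13.5 H3K27ac peak within 5 kb, as did 38 of the 39 Hox genes. Of the 24, 16 had EGFP- H3K27me3, 11 had EGFP+ H3K27ac at E11.5 and 6 had H3K27ac at E15.5. Over all 39 Hox genes these counts were 28, 15 and 13. None of the 24 had EGFP+ H3K27me3 at E11.5 or EGFP- H3K27ac. Across the whole span of each cluster, the E13.5 list held 8 H3K27me3 peaks in Hoxa, 10 in Hoxb, 6 in Hoxc and 6 in Hoxd. The EGFP+ list of E11.5, of similar length (6379 peaks), held 0 in each.

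Hoxa was unlike the other clusters at E15.5. The E15.5 H3K27me3 list, with 1428 peaks in all, held 65 peaks within Hoxa, 1 in Hoxb and 0 in Hoxc and Hoxd. These 65 lay in the first 53.9 kb of the 105 kb cluster in the order of coordinates. Of the 7 Hoxa sites of E13.5, 2 were overlapped by them, at Hoxa2 and Hoxa4, which each had 14 E15.5 H3K27me3 peaks within 5 kb. The Hoxa cluster also held the most EGFP- H3K27me3 peaks, with 35, beside 11 in Hoxb, 8 in Hoxc and 12 in Hoxd.

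Forkhead genes had sites at 15 of 44 members. Foxf1, a mesoderm regulator, had 3 sites, of which 2 were overlapped by no other list and 1 by EGFP- H3K27me3. Foxc1, a regulator of mesenchyme and meninges, had 3, and its 341 bp coding-exon site was overlapped by EGFP- H3K27me3, E11.5 EGFP+ H3K27ac and E13.5 H3K27ac. Foxl1, which acts in gut mesenchyme, had 3 as well, all overlapped by E13.5 H3K27ac. Foxd1 had 2, and the other 11, among them Foxc2, Foxa1, Foxj1 and Foxe3, had 1.

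T-box genes had sites at 6 of 16 members, with 2 at Tbx1 and Tbx4 and 1 at Tbx2, Tbx10, Tbx20 and Tbx21. Sox genes had sites at 6 of 19, with 2 at Sox14 and 1 each at Sox8, Sox10, Sox13, Sox17 and Sox18. Sox10 and Sox17 serve neural crest and endothelium. Among basic helix-loop-helix genes of neural lineages, 9 of 39 had a site, with 2 at Olig2 and 1 each at Olig1, Olig3, Neurod1, Neurod6, Heyl, Hes3, Hes6 and Tcf4. The Neurod1 and Hes6 sites, in genes that act in neuronal differentiation, were overlapped by H3K27ac at all 3 EGFP+ stages and by no other H3K27me3 list. Onecut3 had 3 sites, Pou3f3 2, and Pou3f1 and Pou5f1 1. LIM homeodomain genes had sites at 2 of 12 (Lmx1b with 2, Lhx3 with 1), and Dlx at 1 of 6 (Dlx6), Gata at 1 of 6 (Gata6) and Zic at 1 of 5 (Zic2).

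**Figure D3:**
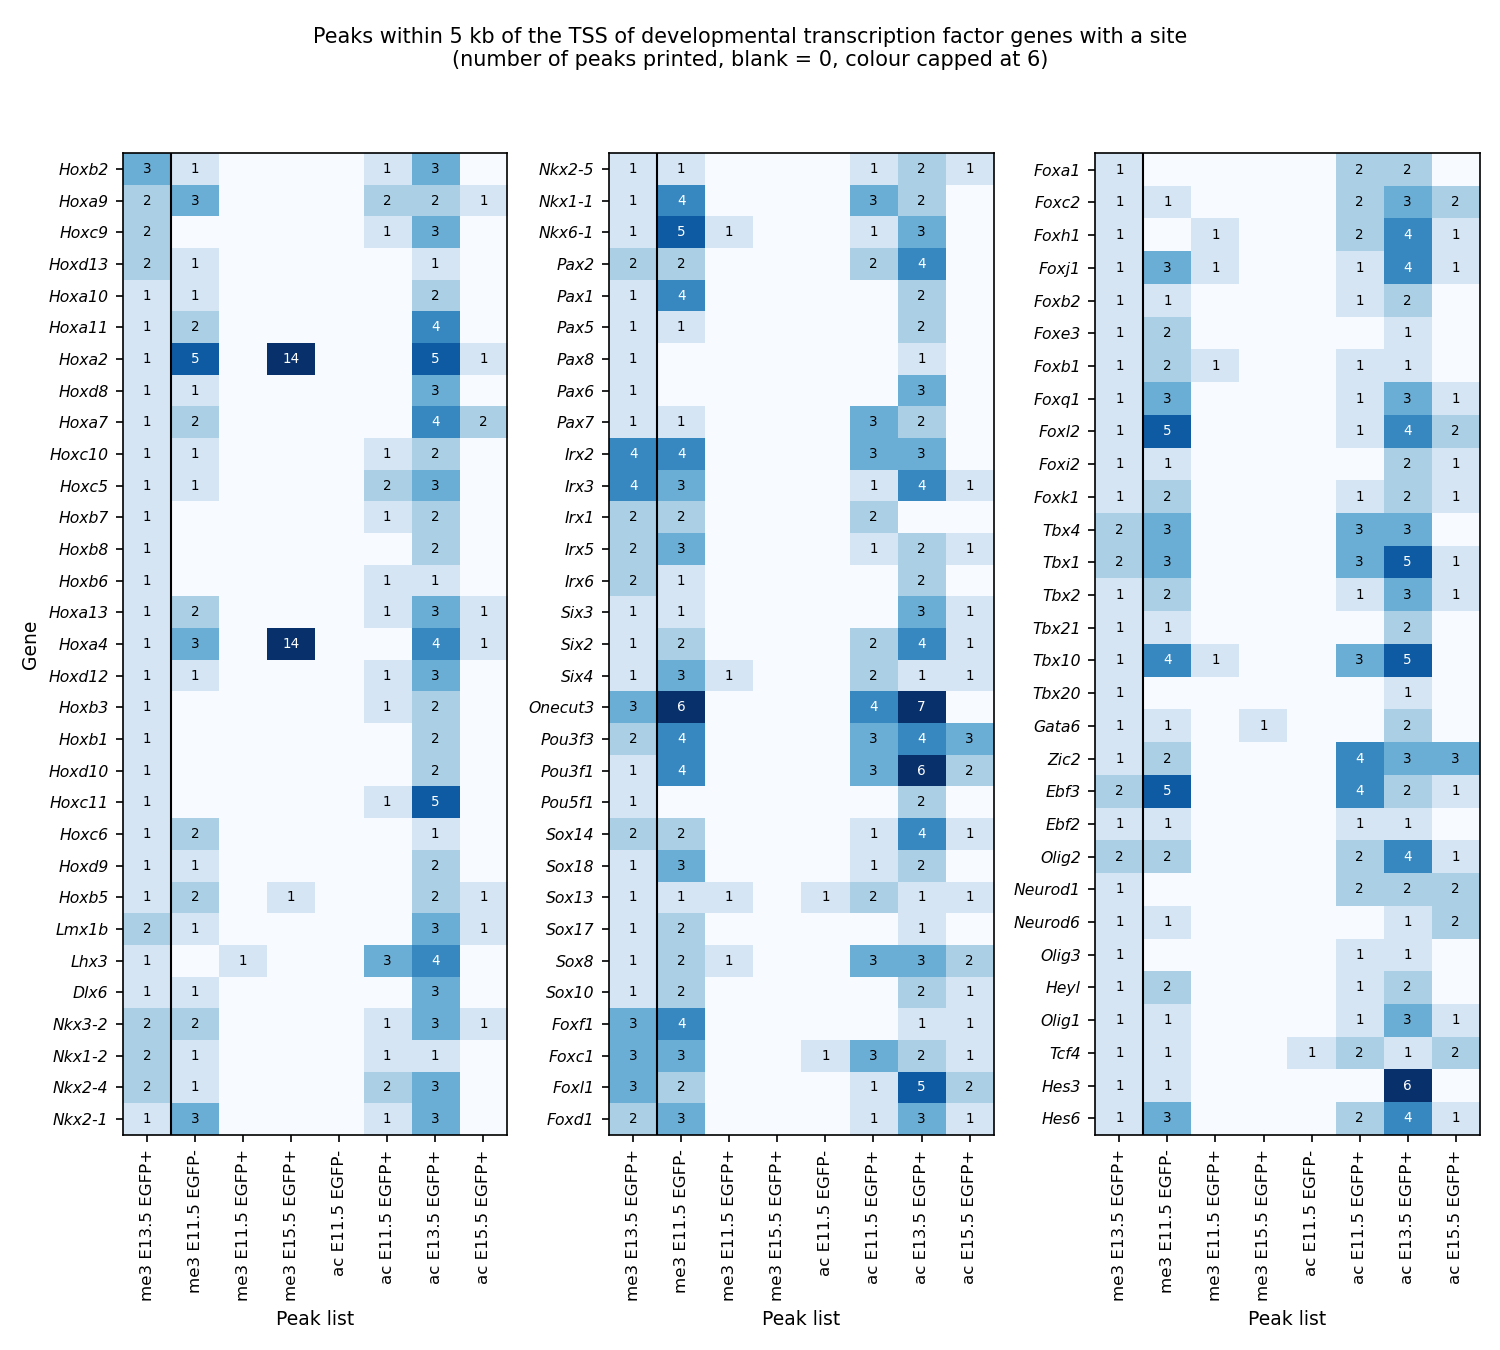
Number of peaks within 5 kb of the TSS in each of the 8 lists (columns, me3 for H3K27me3 and ac for H3K27ac) for 92 developmental transcription factor genes with an E13.5 H3K27me3 site (rows, ordered by family and number of sites). The columns of EGFP- H3K27me3 and E13.5 H3K27ac are filled for most genes, those of EGFP+ H3K27me3 at E11.5 and E15.5 for 9 and 4 of them, and Hoxa2 and Hoxa4 stand out with 14 E15.5 H3K27me3 peaks each.

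Over all 93 developmental genes, 76 (81.7%) had EGFP- H3K27me3 at E11.5 within 5 kb, 92 (98.9%) E13.5 H3K27ac, 61 (65.6%) EGFP+ H3K27ac at E11.5 and 41 (44.1%) E15.5 H3K27ac. The same shares over all 243 genes of these families, marked or not, were 79.8%, 93.0%, 61.7% and 48.1%, so the marked members stood close to their families. Their 123 sites lay further out than sites in general, with 43.9% within 1 kb of a TSS against 57.2%. Of the 123, 59.3% were overlapped by E13.5 H3K27ac, 39.0% by EGFP- H3K27me3, 22.8% by EGFP+ H3K27ac at E11.5 and 13% by E15.5 H3K27ac. The 32 sites of Zfp zinc finger genes gave 68.8%, 34.4%, 68.8% and 71.9% in the same order, and the 42 sites of housekeeping genes 54.8%, 33.3%, 47.6% and 45.2%. Over all sites the shares were 53.3%, 35.0%, 32.8% and 36.3%. The 3 classes thus differed most in H3K27ac of E11.5 EGFP+ and E15.5 cells. Low shares in these 2 lists were not particular to developmental sites. The 12 adhesion sites gave 16.7% and 0%, and the 17 sites of receptor and barrier genes 5.88% and 0%. No test of this difference was made. Of the developmental sites, 33 (26.8%) were overlapped by no other list, against 27.3% of all sites.

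Ligands and receptors of developmental signalling carried sites too. Wnt and frizzled genes had sites at 10 of 29 members and 18 sites. Wnt10b had 4, Wnt1, Wnt3a, Wnt4, Wnt6 and Wnt11 had 2 each, and Wnt7a, Wnt7b, Wnt16 and the receptor Fzd8 had 1. Of the listed Bmp and Fgf ligands and receptors 9 of 40 had a site, for example Fgfr2 (309 bp), Fgf3 (219 bp), Fgf8 (196 bp) and Fgf12 (177 bp). Guidance genes of the Slit, Robo, netrin and Unc5 group had sites at 5 of 16. They were Unc5a with 2 and Unc5b, Ntn1, Slit1 and Ntn4 with 1. All 5 had both EGFP- H3K27me3 and E13.5 H3K27ac within 5 kb, beside 10 and 13 of all 16 genes. Semaphorins, plexins and neuropilins had sites at 5 of 31 (Plxnd1, Sema3c, Nrp2 and Sema6b among them) and ephrins and Eph receptors at 2 of 22 (Efna5 and Ephb3).

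Among genes of neuronal excitability, potassium channels had sites at 18 of 94 members (19.1%, 12.5 to 28.3). With a TSS window of 1 kb the share was 8.51% (4.38 to 15.9), beside 5.38% of all genes, and with sites of at least 200 bp 3.19% (1.09 to 8.97), beside 2.51%, so both intervals held the background. Kcnq1 and Kcna7 had 2 each, and Kcnk9 (252 bp) and Kcnc1 (229 bp) were the widest of the rest. Calcium and sodium channels had sites at 6 of 40 (among them Cacna1g with 2, and Cacna1b and Cacna1i with 1). Glutamate and GABA receptors were at 3 of 45 (Gabbr2, Gabrd and Grik3). Clustered protocadherins, which give neurons their surface identity, had 10 sites at 11 of 57 genes, among them Pcdha6, Pcdha7, Pcdha8 and Pcdhb22, and several of these overlapping genes share a site. Only 1 of the 57 had a site with a TSS window of 1 kb (1.75%), below the 5.38% of all genes.

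Genes of the machinery itself were also in the list. Of 24 Polycomb subunits, 5 had a site (20.8%, 9.24 to 40.5), among them Cbx6 and Cbx8, which read the mark, and Phc1 and Bmi1, which belong to the same complex. These named subunits had EGFP- H3K27me3, EGFP+ H3K27ac at E11.5 and E13.5 H3K27ac within 5 kb, with 7 EGFP- H3K27me3 peaks at Cbx8. Of all 24 subunits, 16, 20 and 21 had a peak of these lists in the same order. At the other end, cytosolic ribosomal proteins had sites at 6 of 83 (among them Rpl18 with 2, and Rpl13a and Rpl23), mitochondrial ribosomal proteins at 5 of 78, and respiratory complex I at 0 of 36.

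The markers of the cell types that the sorted cells could hold give little separation. For Cajal-Retzius cells, the neurons that keep Ebf2-EGFP, 4 of 13 markers had a site: Ebf2, Ebf3, Trp73 and Zic2. Ebf3 had 2 sites on both sides of its TSS, of which 1 was overlapped by H3K27ac at all 3 EGFP+ stages and the other by E13.5 H3K27ac alone. The Zic2 site in the coding exon was likewise overlapped by H3K27ac at all 3 EGFP+ stages. The Ebf2 site, 184 bp wide and 2768 bp upstream, was overlapped by no other list. The Trp73 site was 116 bp wide, lay at the TSS of the neighbour Wrap73 and was overlapped by EGFP- H3K27me3. Sites were found at 2 of 10 progenitor markers (Pax6 and Emx2), 1 of 8 genes listed for subplate and deep layer neurons (Rbfox3), 1 of 8 interneuron markers (Nkx2-1), 2 of 7 glial markers (Olig1 and Olig2), 1 of 6 endothelial, mural and meningeal markers (Foxc1) and 0 of 6 markers of microglia and blood. Rbfox3 is a general neuronal gene rather than a layer marker, and its site was 116 bp wide. E13.5 H3K27ac lay within 5 kb of 13 of 13 Cajal-Retzius markers and of 10 of 10 progenitor markers, but also of 6 of 8 interneuron, 3 of 7 glial, 5 of 6 endothelial and 3 of 6 microglial and blood markers, beside 61.4% of all genes. A mixture of cell types behind the sites was not tested.

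The other 7 lists marked the sites very unequally. The lists differed in length, from 1384 peaks (EGFP- H3K27ac) to 102604 (E13.5 H3K27ac), and a longer list overlaps more, so each share is given beside that of the distal peaks. E13.5 H3K27ac, from cells of the same sort and stage, overlapped 53.3% of sites and 31.9% of distal peaks. E15.5 H3K27ac overlapped 36.3% and 6.99%, E11.5 EGFP+ H3K27ac 32.8% and 11.2%, and EGFP- H3K27ac 5.64% and 0.897%. Of the H3K27me3 lists, EGFP- cells at E11.5 overlapped 35.0% of sites and 15.3% of distal peaks, E15.5 cells 3.28% and 1.11%, and EGFP+ cells at E11.5 1.76% and 2.86%. The last list overlapped a smaller share of sites than of distal peaks, and the other 6 a larger one. For E15.5 H3K27me3 that direction rests on repeats. Of the 67 sites it overlapped, 45 were the satellite sites of chromosome 9, and without peaks that were mostly repeat-masked it overlapped 0.722% of sites (0.431 to 1.21) and 0.718% of distal peaks (0.501 to 1.03). Without such peaks the other 6 lists kept their direction. With every other list cut to its 1384 widest peaks, E15.5 H3K27ac overlapped 7.35% of sites and E13.5 H3K27ac 3.63%. This setting changes both the length of a list and the widths it holds, and their parts were not told apart. No other list overlapped 557 sites (27.3%, 25.4 to 29.3), against 57.8% of distal peaks, and the most frequent patterns after that were E13.5 H3K27ac alone (290 sites) and EGFP- H3K27me3 with all 3 EGFP+ H3K27ac lists (148 sites).

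Overlap was higher close to the TSS for the EGFP+ H3K27ac lists and for EGFP- H3K27me3. Of sites within 1 kb, 63.2% were overlapped by E13.5 H3K27ac, 52.6% by E15.5 H3K27ac, 45.8% by E11.5 EGFP+ H3K27ac and 42.8% by EGFP- H3K27me3. Between 1 and 5 kb the shares were 40.2%, 14.4%, 15.3% and 24.5%. Whether both marks lay on the same chromatin or in different cells of the sorted pool was not tested. Sites were overlapped in all 3 EGFP+ H3K27ac lists in 337 cases (16.5%) and in no H3K27ac list in 658 (32.3%).

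**Figure D4:**
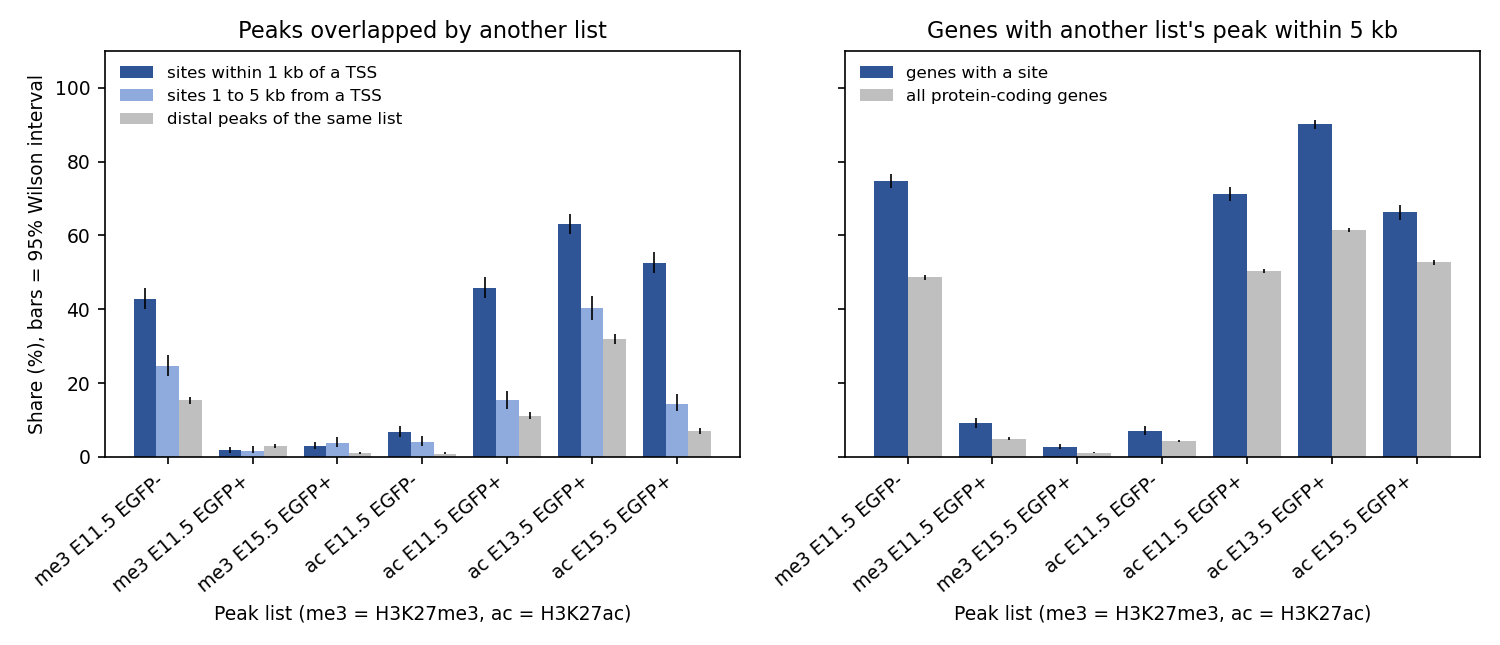
Left, share of peaks overlapped by at least 1 bp in each of the other 7 lists (y axis, %) for sites within 1 kb of a TSS, sites between 1 and 5 kb, and distal peaks. Right, share of genes with a peak of that list within 5 kb, for genes with a site and for all protein-coding genes. Error bars are 95% Wilson intervals. E13.5 H3K27ac stands highest in both panels, at 63.2% of the sites within 1 kb and 90.1% of the genes with a site, and EGFP+ H3K27me3 of E11.5 and E15.5 lie under 10%.

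At the level of genes, 90.1% of the 2042 marked genes had an E13.5 H3K27ac peak within 5 kb, beside 61.4% of all genes. EGFP- H3K27me3 was near 74.6% of them (48.6% of all genes), E11.5 EGFP+ H3K27ac near 71.3% (50.4%), E15.5 H3K27ac near 66.2% (52.7%), EGFP+ H3K27me3 of E11.5 near 9.11% (4.96%), EGFP- H3K27ac near 7.05% (4.20%) and E15.5 H3K27me3 near 2.69% (1.07%). For E15.5 H3K27ac the direction was the reverse among genes with a CpG-rich TSS, as given below. Of the other H3K27me3 lists, EGFP- cells at E11.5 alone also marked 1322 genes (64.7%), and 489 genes (23.9%) had H3K27me3 in the E13.5 list only. The EGFP- list is much longer, with 48836 peaks against 6379 for E11.5 EGFP+ and 1428 for E15.5. It was near 48.6% of all genes, against 4.96% and 1.07%. Shares of these patterns over all genes were not computed, so the counts do not set the marked genes apart.

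H3K27ac in none of the 4 lists was rare among the marked genes, at 72 genes (3.53%), against 24.9% of all genes. Among those with the widest sites were Samd11 (415 bp), Fcrlb (270 bp), Zbtb8b (257 bp), Bsx (240 bp), a homeodomain gene of the hypothalamus, Lmod2 (232 bp), an actin regulator of muscle, Slc35f2 (231 bp), Gm21188 (216 bp), Sult2a5 (201 bp) and Hpse2 (200 bp). Samd11, Zbtb8b and Hpse2 had no peak in any other list, and the others named here had EGFP- H3K27me3 within 5 kb.

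H3K27me3 in all 4 groups was rarer. Only 3 sites were overlapped by all 3 other H3K27me3 lists, 2 at Tmem125 and 1 at Duxf3, a multicopy double homeobox gene. Both Tmem125 sites, 255 and 257 bp wide and 3322 and 4544 bp upstream, were overlapped in every list of either mark. The second of them is the tandem array printed above, where read placement is uncertain, and since input libraries were not analysed here, enrichment over input at these sites was not tested. Counted by gene, 9 had H3K27me3 within 5 kb in all 4 lists, namely Insrr, Tmem125, Sh2b3, Gm4881, Fgf3, Duxf3, Gm4981, Pnpla5 and Hspa1b. Duxf3 and Gm4981 lie in a tandem array of similar copies, where reads could not be assigned with certainty.

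The sites were rich in CpG. A 500 bp window around the centre was called CpG-dense at a GC content of at least 55% and a CpG observed to expected ratio of at least 0.65. By that measure 48.6% of sites were CpG-dense (46.5 to 50.8), with 69.3% of those within 1 kb and 21.0% of those between 1 and 5 kb, against 5.94% of distal peaks. Windows at the TSS itself were CpG-dense in 54.6% of marked genes and 41.7% of all genes. Genes with a CpG-dense TSS had a site in 12.3% of cases (1114 of 9072) and other genes in 7.32% (928 of 12683). For developmental transcription factors the shares were 35.0% (43 of 123) and 41.7% (50 of 120), so their high share was not limited to CpG-dense starts. For genes of neuronal excitability they were 25.3% (24 of 95) and 5.93% (8 of 135). Among genes with a CpG-dense TSS, E15.5 H3K27ac lay within 5 kb of 81.1% of marked genes (78.7 to 83.3) and 85.7% of all genes (84.9 to 86.4). There E11.5 EGFP+ H3K27ac gave 81.2% and 77.7%, and E13.5 H3K27ac 92.1% and 79.4%. Among genes with another TSS the shares were 48.2% and 29.1%, 59.4% and 30.8%, and 87.6% and 48.6% in the same order.

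Split by CpG density, sites and distal peaks lay closer together, in percentage points, in CpG-dense peaks for EGFP- H3K27me3, EGFP- H3K27ac and E13.5 H3K27ac. They lay further apart there for E11.5 EGFP+ H3K27ac, E15.5 H3K27ac and E11.5 EGFP+ H3K27me3. Within CpG-dense peaks, E13.5 H3K27ac overlapped 67.7% of sites (64.8 to 70.6) and 71.2% of distal peaks (65.6 to 76.2), EGFP- H3K27me3 48.9% and 56.1%, and E11.5 EGFP+ H3K27ac 53.9% and 48.2%. E15.5 H3K27ac kept a gap, at 59.2% of sites (56.1 to 62.2) and 41.7% of distal peaks (36.1 to 47.6). For EGFP+ H3K27me3 the CpG-dense sites stood below the distal peaks, at 1.21% (0.693 to 2.10) and 7.19% (4.71 to 10.9) for E11.5 and 0.605% (0.277 to 1.31) and 3.60% (1.97 to 6.49) for E15.5. In peaks that were not CpG-dense the shares were 39.7% and 29.4% for E13.5 H3K27ac and 21.9% and 12.7% for EGFP- H3K27me3. They were 14.6% and 4.79% for E15.5 H3K27ac and 12.8% and 8.81% for E11.5 EGFP+ H3K27ac. EGFP- H3K27ac overlapped 5.54% of sites and 5.76% of distal peaks that were CpG-dense, and 5.73% and 0.591% of the others. The 5.73% stands for 60 of 1048 sites, and this list overlapped 44 of the 45 satellite sites of chromosome 9. Without peaks that were mostly repeat-masked, and with both CpG classes together, it overlapped 3.30% of sites and 0.570% of distal peaks. The split by CpG density was not repeated without repeats. The part of CpG content in peak calling was not tested.

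**Figure D5:**
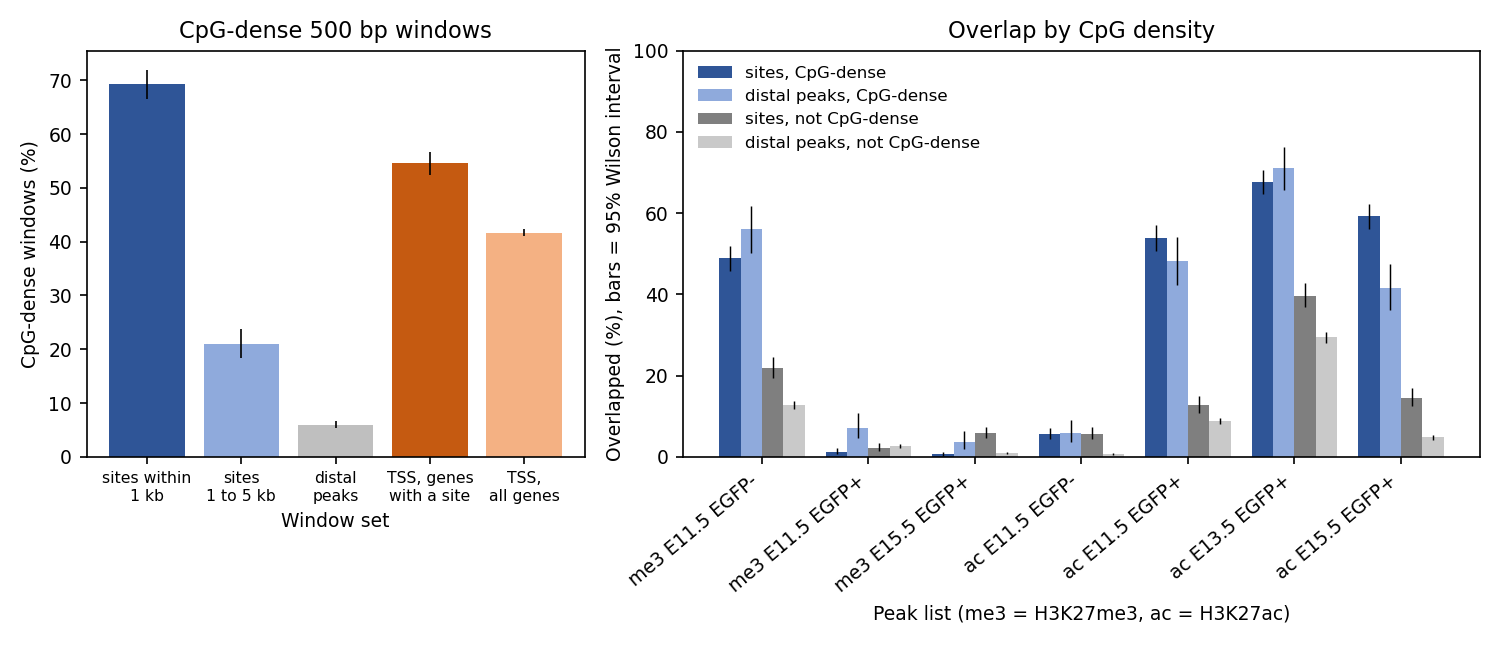
Left, share of 500 bp windows that were CpG-dense (y axis, %) for sites within 1 kb, sites between 1 and 5 kb, distal peaks and TSSs of marked and of all genes. Right, share of sites and distal peaks overlapped by each of the other 7 lists, split by CpG density. Error bars are 95% Wilson intervals. In CpG-dense peaks sites and distal peaks reach similar shares with E13.5 H3K27ac (67.7% and 71.2%), and with E15.5 H3K27ac the sites stand higher (59.2% and 41.7%).

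Short motifs were counted on both strands in 150 bp windows around the centres, each word apart from the others, which it may overlap. CGCG, a word of CpG islands, was present in 48.4% of sites and 66.2% of those within 1 kb, against 11.4% of distal peaks, 52.8% of TSSs of marked genes and 41.4% of all TSSs. The word CANNTG, the E-box core of helix-loop-helix factors, was in 46.7% of sites, 60.7% of distal peaks and 43.8% of all TSSs. GAGAGA was in 8.97% of sites, 12.1% of distal peaks and 12.7% of all TSSs. GCCAT was in 27%, 31.9% and 24.2% of them, and TATAAA in 0.833%, 1.45% and 6.80%. These matches are descriptions of the letters in the windows and say nothing of binding.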

How the data were processed

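The authors aligned the ChIP-seq reads to mm10 with Bowtie 1.1.2 (up to 3 mismatches) and called peaks with MACS under a p cut-off of 1e-05. How replicates were combined, and which release of the caller was used, are not given in the sources used here. Each deposited list holds a position, a name, a strand and a score per peak, and the score deposited by the authors is 0 in every row, so no peak height or enrichment was available and the depth is unknown. Starts were read as counted from 0 and are printed counted from 1. Widths, distances to TSSs, overlaps of at least 1 bp, families by gene symbol and sequence features were computed here with Python 3.11.15 and pysam 0.24.0 on GENCODE M21 genes and the GRCm38 sequence, with 95% Wilson intervals from the counts, and were checked on simulated peaks.

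The members, families, markers and motifs were chosen with earlier results of these data known. Genes were named by rule: the 10 with most sites, those of the 10 widest sites, those of sites in all other H3K27me3 lists, 10 without H3K27ac, marked markers and developmental factors, and up to 4 examples in each other family, ordered by sites and width. Beyond the rule, all genes with 4 sites, some with 3, the marked Wnt, Slit-group and Polycomb genes, and the 5 sequences said above were chosen after their values were seen. Input libraries were not analysed here, and some genes that the rule names are not reported here. Alternatives are in the closing section.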

Additional observations from a re-analysis of the deposited data

How the results depend on the processing

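The 17 shares of the E13.5 sites, of their genes and of their overlaps were recomputed under 9 alternatives, and 59 of 130 values stayed within the 95% interval of the share reported. Using chromosomes 1 to 19 alone kept all 17 there. With a TSS window of 1 kb, 17.4% of the list lay near a TSS, 5.38% of genes had a site and 4.61% of these had more than 1. The share of sites overlapped was then 42.8% for EGFP- H3K27me3, 6.77% for EGFP- H3K27ac, 45.8% for E11.5 EGFP+ H3K27ac, 63.2% for E13.5 H3K27ac and 52.6% for E15.5 H3K27ac. The share of marked genes with the list near the TSS was 66.2% for EGFP- H3K27me3, 3.67% for E11.5 EGFP+ H3K27me3, 1.96% for E15.5 H3K27me3, 8.28% for EGFP- H3K27ac, 64.1% for E11.5 EGFP+ H3K27ac, 81.6% for E13.5 H3K27ac and 63.1% for E15.5 H3K27ac. With any protein-coding transcript start as TSS, 37.4% of the list lay near a TSS, 11.1% of genes had a site and 13.54% of these had more than 1. The share of sites overlapped was then 32.6% for EGFP- H3K27me3, 30.1% for E11.5 EGFP+ H3K27ac, 50.8% for E13.5 H3K27ac and 32.4% for E15.5 H3K27ac. The share of marked genes with the list near the TSS was 78.9% for EGFP- H3K27me3, 13.46% for E11.5 EGFP+ H3K27me3, 75.5% for E11.5 EGFP+ H3K27ac, 92.2% for E13.5 H3K27ac and 70.5% for E15.5 H3K27ac. With peaks of at least 200 bp, 40.2% of the list lay near a TSS, 2.51% of genes had a site and 7.31% of these had more than 1. The share of sites overlapped was then 49.0% for EGFP- H3K27me3, 5.19% for E15.5 H3K27me3, 8.46% for EGFP- H3K27ac, 41.5% for E11.5 EGFP+ H3K27ac, 66.0% for E13.5 H3K27ac and 44.2% for E15.5 H3K27ac. The share of marked genes with the list near the TSS was 80.8% for EGFP- H3K27me3, 4.57% for E15.5 H3K27me3, 8.96% for EGFP- H3K27ac, 78.6% for E11.5 EGFP+ H3K27ac, 93.2% for E13.5 H3K27ac and 68.6% for E15.5 H3K27ac. With peaks within 1 kb merged, 29.2% of the list lay near a TSS, 6.51% of marked genes had more than 1 site, and the overlapped share was 1.27% for E15.5 H3K27me3 and 3.87% for EGFP- H3K27ac. With a reciprocal overlap of at least 50%, the overlapped share fell to 13.8% for EGFP- H3K27me3, 0.784% for E11.5 EGFP+ H3K27me3, 3.28% for EGFP- H3K27ac, 9.12% for E11.5 EGFP+ H3K27ac, 20.5% for E13.5 H3K27ac and 6.23% for E15.5 H3K27ac. With a peak within 1 kb of the site counted, it was 57.8% for EGFP- H3K27me3, 4.12% for E11.5 EGFP+ H3K27me3, 7.99% for EGFP- H3K27ac, 50.9% for E11.5 EGFP+ H3K27ac, 75.6% for E13.5 H3K27ac and 46.1% for E15.5 H3K27ac. With each other list cut to its 1384 widest peaks, it was 3.58% for EGFP- H3K27me3, 0.539% for E11.5 EGFP+ H3K27me3, 6.03% for E11.5 EGFP+ H3K27ac, 3.63% for E13.5 H3K27ac and 7.35% for E15.5 H3K27ac, and the gene share was 5.88% for EGFP- H3K27me3, 2.94% for E11.5 EGFP+ H3K27me3, 9.11% for E11.5 EGFP+ H3K27ac, 4.55% for E13.5 H3K27ac and 9.75% for E15.5 H3K27ac, so among the widest peaks E15.5 H3K27ac stood highest, and the order in the report is that of the lists as deposited. Leaving out peaks with at least 50% repeat-masked bases, an alternative chosen after seeing the data, gave 32.4% of the list near a TSS and an overlap of 0.722% for E15.5 H3K27me3 and 3.30% for EGFP- H3K27ac. The other 14 shares stayed within their intervals. The shares of the 43 gene families left their intervals in 14 families with a TSS window of 1 kb, in 31 with peaks of at least 200 bp and in 1 with any transcript start. Of the 28 families above the share of all genes, 24 stayed above it with a TSS window of 1 kb (not Gata, clustered protocadherins, ubiquitin genes and the MAP kinase cascade) and 24 with peaks of at least 200 bp (not LIM homeodomain, synaptotagmins and SNAREs, ubiquitin genes and the MAP kinase cascade). No paired analysis was possible because each group has 1 peak list, and leaving out a replicate was not possible for the same reason. Widths close to the smallest a list holds, unknown depth and a score of 0 limit what a missing peak means: a list without a peak does not show that the mark was absent.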

Other observations

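Symbol stems, the letters before the number in a gene name, gave a view of families outside the lists of the report. Of 340 stems with at least 8 genes, 98 had no gene with a site and 24 had a site in at least 30% of their genes. Besides the developmental factors, they included Smad genes, which act in the Bmp and Tgf-beta pathways, with 4 of 8 (Smad1, Smad2, Smad4 and Smad7). They also included alpha protocadherins with 7 of 12, some of which share a site. These stems were noticed in the same data, and no test was made.

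In the E11.5 EGFP+ H3K27me3 list, with 6379 peaks close in length to the 6720 of E13.5, 1007 peaks (15.8%) lay within 5 kb of a TSS, against 2040 (30.4%), and 7.41% of the 243 developmental transcription factor genes had a peak there, beside 4.96% of all genes, while at E13.5 the shares were 38.3% and 9.39%. The 2 lists come from different stages and libraries, and what lies behind the difference was not tested.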
